A study of Homo sapiens with 6 samples.

Results

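The genes described here are 9 transcription factor genes that mark the developing kidney and its nephron progenitors: SIX2, EYA1, PAX2, PAX8, WT1, SALL1, LHX1, GATA3 and OSR1. They were chosen by gene symbol from the 60609 genes listed per library. Messenger RNA was sequenced from HEK293, a line of cultured cells derived from human embryonic kidney, in 3 STAT5B knockout libraries and 3 wild-type libraries. The knockout cells carried CRISPR/Cas9 mutations on both alleles of STAT5B, a transcription factor that cytokine and growth hormone receptors activate. They were picked as clones, so what a clone carried by chance and what followed from the mutation cannot be told apart. The labels give neither the number of clones behind the knockout libraries nor whether the 3 libraries per genotype are independent cultures, and they leave the word Sham in the sample names unexplained. The culture protocol also speaks of GS knockout clones without saying what GS is, so the genotype is given here as the sample labels state it. The p-values therefore measure only the spread between these libraries, which may be technical.

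The kidney forms from the intermediate mesoderm, where OSR1 is among the earliest factors made and PAX2 and PAX8 then act together. Nephron progenitors are kept dividing by SIX2, a homeodomain factor that works with the co-activator EYA1, alongside SALL1 and WT1. As progenitors turn into nephrons LHX1 patterns the first epithelial vesicles, while GATA3 acts in the nephric duct and the collecting system. These roles are known from mouse and human kidney development and were not tested in these cells.

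STAT5B mRNA was present in every knockout library, with 1111, 1287 and 1059 estimated counts against 1242, 1232 and 1410 in the wild-type libraries. Its log2 fold change was −0.14 (edgeR adjusted p = 0.0468), a call that ended in 11 of 15 alternative settings, and a gene-level count cannot show a mutation of a few bases. The libraries held 17494958 to 21099813 estimated counts in the knockout and 17686407 to 20279181 in the wild type. Over the whole table edgeR called 1924 of 15958 genes higher in the knockout and 1818 lower, which is 12.1% and 11.4% of the genes tested. On log2(TPM + 1) these counts were 488 and 1135. TPM is transcript abundance per effective length, scaled to 1000000 per library.

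Several defining markers of the mature nephron were not detected in either group. Uromodulin (UMOD), the water channel AQP2 of the collecting duct and the phosphate carrier SLC34A1 of the proximal tubule had 0 counts in all 6 libraries, as did HNF4A, a regulator of proximal tubule identity. The 10 proximal tubule markers summed to 9.92 to 13.7 TPM in the knockout and 11.01 to 14.04 TPM in the wild type, most of it from the endocytic receptor LRP2 (9.82 TPM in the knockout and 10.5 TPM in the wild type). The 10 collecting duct markers summed to 5.96 to 7.36 TPM in the knockout and 4.004 to 6.72 TPM in the wild type, and the 8 markers of the loop and distal tubule to 1.63 to 3.97 TPM in the knockout and 1.28 to 2.30 TPM in the wild type. None of the tested markers of proximal tubule (3), loop and distal tubule (1) or collecting duct (3) passed edgeR. Among all genes tested 23.4% did. Endothelial and adrenal markers were at or near 0, with sums of at most 0.104 and 0.213 TPM in the knockout and 0.381 and 0.326 TPM in the wild type. Haematopoietic markers summed to 1.49 to 3.67 TPM in the knockout and 1.97 to 3.09 TPM in the wild type, with 0 of 2 tested past the threshold. The 10 neuronal markers summed to 217.9 to 233.1 TPM in the knockout and 353.2 to 364.9 TPM in the wild type. Of these, 6 had a mean of at least 1 TPM in a group, and the neurofilament gene NEFM was the most abundant. Only NEFM passed edgeR (1 of 7 tested, log2 fold change −1.14, adjusted p = 1.13e-08). It had 99.7 ± 8.41 TPM in the knockout and 230.3 ± 7.90 TPM in the wild type (SD, n = 3 each). Its part in the results below was not tested.

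The 9 genes ran from SIX2, the most abundant, down to PAX8, with 1 count in 6 libraries. The sequences just before the RefSeq transcription starts of SIX2, of PAX8 and of WT1, which had the next highest mean TPM after SIX2, are shown because these genes mark the ends and the upper part of that range. Each line holds the 250 bases before the start, 5′ to 3′ on the strand of the gene, on GRCh38.p14, with CG dinucleotides in capitals. The SIX2 window is chr2:45009453-45009702 and the PAX8 window chr2:113278922-113279171, both on the minus strand. The WT1 window is chr11:32435540-32435789, also on the minus strand, and is the most upstream of 4 annotated starts.
SIX2: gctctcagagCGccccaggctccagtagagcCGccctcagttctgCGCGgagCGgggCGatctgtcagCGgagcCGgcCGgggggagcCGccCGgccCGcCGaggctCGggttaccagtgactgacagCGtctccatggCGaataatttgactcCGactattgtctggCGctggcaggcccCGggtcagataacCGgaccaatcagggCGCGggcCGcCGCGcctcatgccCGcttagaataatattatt
PAX8: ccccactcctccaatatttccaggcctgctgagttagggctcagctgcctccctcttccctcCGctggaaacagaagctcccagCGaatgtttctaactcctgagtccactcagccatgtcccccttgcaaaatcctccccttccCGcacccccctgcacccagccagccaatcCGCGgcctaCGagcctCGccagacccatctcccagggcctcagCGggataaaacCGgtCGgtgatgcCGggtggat
WT1: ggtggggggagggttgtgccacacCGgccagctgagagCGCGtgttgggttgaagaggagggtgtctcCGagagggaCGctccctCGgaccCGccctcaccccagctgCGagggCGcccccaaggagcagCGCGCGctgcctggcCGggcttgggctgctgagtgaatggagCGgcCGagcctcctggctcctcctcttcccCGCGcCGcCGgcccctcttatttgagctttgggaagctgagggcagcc
The SIX2 window held 26 CG dinucleotides, more than 80.4% of the 35114 windows of this length in the table. The PAX8 window held 11, equal to the median over all windows, and the WT1 window held 19. CCAAT or its reverse complement ATTGG stood once in the SIX2 window, 52 bases before the start, and at 2 places in the PAX8 window, and 32% of all windows held one. TTCNNNGAA, a motif that STAT proteins bind and which reads the same on both strands, was in 0 of the 14 windows listed for 5 of the genes (PAX2, PAX8, SIX2, WT1 and GATA3), against 6.57% of all windows. These counts describe letters in short windows and say nothing on binding elsewhere.

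SIX2 (ENSG00000170577, chromosome 2, 45005161 to 45009430, minus strand, hg38), which keeps nephron progenitors in self-renewal, was the most abundant of the 9 genes per length. It had 44.4, 46.0 and 48.4 TPM in the knockout libraries and 52.6, 49.0 and 51.1 TPM in the wild-type libraries. It lay above 86.7% of the 28780 detected genes in the knockout and above 87.4% in the wild type. The knockout TPM values were all below the wild-type values, but on counts the groups overlapped: CPM, counts scaled to 1000000 on the library sizes, were 50.9, 53.4 and 55.6 in the knockout and 57.3, 53.0 and 55.7 in the wild type. The log2 fold change was −0.053, with a 95% interval of −0.16 to 0.057 (edgeR adjusted p = 0.502). That interval holds changes between 0.892-fold and 1.04-fold, the tightest of the 8 genes tested. On log2(TPM + 0.1) the log2 fold change was −0.14, with a 95% interval of −0.27 to −0.0093. It did not pass after adjustment (limma adjusted p = 0.152). SIX2 has 1 annotated transcript, and its deposited length was 2206 bases in every library. Over all genes tested the median log2 fold change was −0.067 on log2(TPM + 0.1), against 0.0063 on counts.

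**Figure D1:**
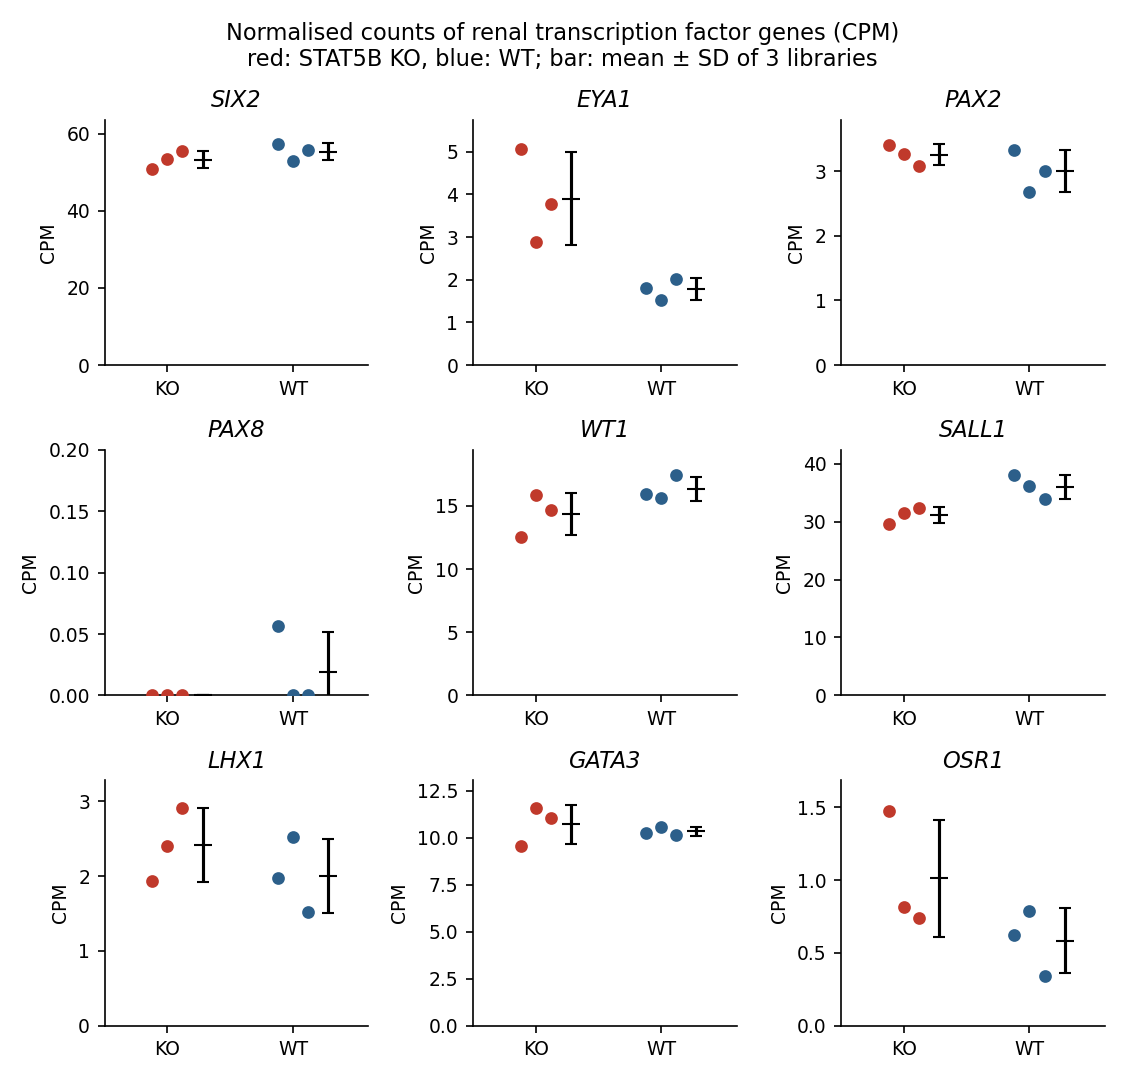
Normalised counts (CPM, y axis from 0, its own scale per panel) of the 9 genes in each knockout (red, KO) and wild-type (blue, WT) library, with mean ± SD of 3 libraries; the panel headed WT1 is the gene of that name. EYA1 lies higher in all knockout libraries and SALL1 lower, and the other genes overlap between groups.

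EYA1 (ENSG00000104313, minus strand of chromosome 8), the phosphatase and co-activator that partners SIX2 and its relatives, was higher in the knockout. It had 89, 60 and 66 counts in the knockout libraries and 32, 29 and 41 counts in the wild-type libraries. Scaled to library size these were 5.06, 2.88 and 3.77 CPM in the knockout and 1.81, 1.52 and 2.02 CPM in the wild type. The groups did not overlap, and knockout replicate 1 was the highest. Groups that do not overlap were found for 38.6% of all genes tested, with the knockout above for 19.9% and below for 18.7%. The count-based rise of EYA1 was 1.12 in log2 (95% interval 0.59 to 1.65, edgeR adjusted p = 0.00446), or 2.17-fold. Leaving out 1 library at a time gave log2 fold changes between 0.89 (without knockout replicate 1, adjusted p = 0.0303) and 1.30. In bulk RNA, more cells making EYA1 and more EYA1 mRNA per cell cannot be told apart.

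The EYA1 rise was not called once transcript length entered the measure. The deposited gene length, which differs between libraries for genes with several transcripts, was 3194, 2717 and 3699 bases in the knockout and 4108, 3462 and 1714 bases in the wild type. GENCODE lists 25 EYA1 transcripts of 347 to 4326 bases, and the short value of wild-type replicate 3 rests on 41 counts. In TPM the gene stood at 2.60, 1.68 and 1.69 in the knockout and 0.766, 0.765 and 2.11 in the wild type, and wild-type replicate 3 lay among the knockout values. With effective-length offsets the log2 fold change was 0.88 (edgeR adjusted p = 0.199), and limma on log2(TPM + 0.1) gave 0.79 (adjusted p = 0.236). The 3 other genes annotated across EYA1 had 0 counts in every library. The 6 other tested genes within 1000 kb of EYA1 had a median log2 fold change of 0.17, with 1 higher and 0 lower. Over all genes 12.1% were called higher and 11.4% lower, and the 548 other tested genes of chromosome 8 had a median of −0.00029.

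PAX2 (ENSG00000075891, chromosome 10, 100735603 to 100829941, plus strand), the paired-box factor needed for the nephric duct and the progenitors, was transcribed at a low level. It had 60, 68 and 54 counts in the knockout libraries and 59, 51 and 61 counts in the wild-type libraries. Its level was 1.89 ± 0.14 TPM in the knockout and 1.73 ± 0.24 TPM in the wild type (SD, n = 3 each), and the groups overlapped. The log2 fold change of 0.12 had a 95% interval of −0.28 to 0.52 (edgeR adjusted p = 0.703), and it reaches up to 1.43-fold.

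PAX8 (ENSG00000125618, chromosome 2, 113215997 to 113278950, minus strand), the partner of PAX2 in the renal lineage and a regulator of the thyroid, was the only 1 of the 9 genes left out of the test for low counts. It had 0 counts in each knockout library and 1, 0 and 0 counts in the wild-type libraries. A count of 0 over the 3 knockout libraries allows up to 0.0534 CPM at 3 counts, covering counting error only, and no fold is given because both groups are under this floor. PAX8-AS1, a noncoding gene on the opposite strand that overlaps PAX8, had 5, 1 and 2 counts in the knockout and 0, 4 and 0 in the wild type. PAX2 thus had 182 counts in the knockout and 171 in the wild type where PAX8 had 0 and 1.

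WT1 (ENSG00000184937, chromosome 11, 32387775 to 32435630, minus strand), the zinc-finger factor of nephron progenitors and podocytes that is lost in some Wilms tumours, had the next highest mean TPM, in a range that overlapped that of SALL1. It had 221, 330 and 257 counts in the knockout libraries and 282, 298 and 354 counts in the wild-type libraries. In CPM these were 12.6, 15.8 and 14.7 in the knockout and 15.9, 15.6 and 17.4 in the wild type, and knockout replicate 2 lay between the wild-type values. The log2 fold change was −0.18 (95% interval −0.38 to 0.021, edgeR adjusted p = 0.189). Its level per length was 14.6 ± 2.23 TPM in the knockout and 18.8 ± 4.23 TPM in the wild type (SD, n = 3 each), and the deposited length moved between 1338 and 2114 bases.

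WT1-AS, a noncoding gene read on the opposite strand from a start that overlaps the WT1 start, varied more than WT1 did. It had 12, 31 and 9 counts in the knockout libraries and 37, 23 and 13 counts in the wild-type libraries. Its log2 fold change of −0.50 had a 95% interval of −1.48 to 0.48 (edgeR adjusted p = 0.473), and without wild-type replicate 1 it was −0.013. Nothing in the sources used here says whether counting used strand, so reads from the stretch the genes share cannot be assigned to either.

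SALL1 (ENSG00000103449, chromosome 16, 51135975 to 51151367, minus strand), a zinc-finger factor of nephron progenitors whose mutation causes Townes-Brocks syndrome, was slightly lower in the knockout. It had 29.6, 31.5 and 32.4 CPM in the knockout libraries and 38.1, 36.1 and 33.9 CPM in the wild-type libraries. The groups did not overlap, with a gap smaller than the spread within the wild type. SALL1 fell by 0.21 on the log2 scale (95% interval −0.34 to −0.074, edgeR adjusted p = 0.0265), to 0.866-fold. The call ended in 8 of 15 alternatives, among them DESeq2 (adjusted p = 0.0718), which called 20.2% of its genes, 9.99% higher and 10.2% lower. It also ended without knockout replicate 1 or 2 (edgeR adjusted p = 0.108 and 0.0597) and without wild-type replicate 1 or 2 (0.112 and 0.0733). The fall itself was of much the same size there, with log2 fold changes of −0.21 in DESeq2, −0.17 and −0.22 without those knockout replicates, and −0.17 and −0.21 without those wild-type replicates.

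Length was again part of the SALL1 measurement. The deposited length was 3581, 3635 and 4137 bases in the knockout and 4512, 4058 and 4519 bases in the wild type. The level per length was then 13.2, 13.6 and 12.6 TPM in the knockout and 14.3, 15.01 and 12.6 TPM in the wild type, and the groups overlapped. With effective-length offsets the log2 fold change was −0.017 (95% interval −0.21 to 0.17, edgeR adjusted p = 0.922). The 5 GENCODE transcripts of SALL1 range from 407 to 5253 bases, and the 2 genes annotated across it held at most 3 counts in a library.

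**Figure D2:**
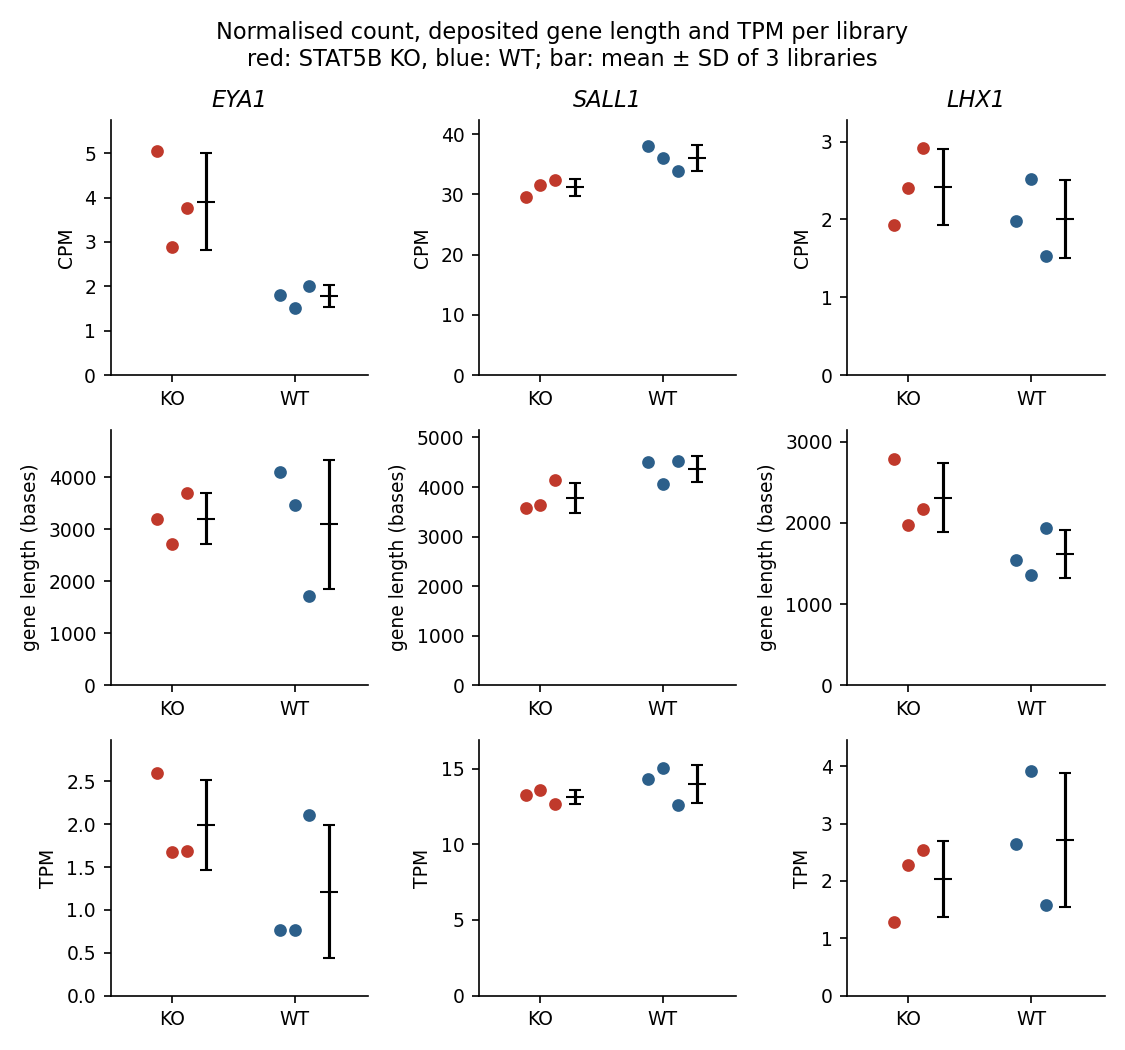
Normalised count (CPM, top row), deposited gene length (bases, middle row) and TPM (bottom row) of EYA1, SALL1 and LHX1 in each knockout (red) and wild-type (blue) library, with mean ± SD of 3 libraries. The groups separate for EYA1 and SALL1 in CPM and overlap in TPM.

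LHX1 (ENSG00000273706, chromosome 17, 36936785 to 36944612, plus strand), the LIM-homeodomain factor of the nephric duct and renal vesicle, had no stable direction. It had 34, 50 and 51 counts in the knockout libraries and 35, 48 and 31 counts in the wild-type libraries. On counts its log2 fold change was 0.27 (95% interval −0.28 to 0.82, edgeR adjusted p = 0.492), and with effective-length offsets it was −0.33 (adjusted p = 0.635). The level was 2.04 ± 0.66 TPM in the knockout and 2.71 ± 1.17 TPM in the wild type (SD, n = 3 each). The 14 other tested genes within 1000 kb of LHX1 had a median log2 fold change of −0.13, with 0 higher and 5 lower. Over all genes 12.1% were called higher and 11.4% lower. The 943 other tested genes of chromosome 17 had a median of −0.0665. Within the same distance WT1 had 16 tested neighbours (1 higher, 5 lower) and PAX2 had 33 (3 higher, 6 lower). SIX2 and SALL1 had 6 each (0 higher, 0 lower).

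GATA3 (ENSG00000107485, chromosome 10, 8045378 to 8075203, plus strand), the zinc-finger factor of the nephric duct and collecting system, had overlapping levels in the groups. It had 168, 241 and 193 counts in the knockout libraries and 182, 202 and 206 counts in the wild-type libraries. The mean was 10.7 ± 1.05 CPM in the knockout and 10.3 ± 0.23 CPM in the wild type (SD, n = 3 each), and the wild-type values lay inside the knockout range. The log2 fold change of 0.055 had a 95% interval of −0.16 to 0.27 (edgeR adjusted p = 0.740). GATA3-AS1, on the opposite strand, held at most 2 counts in a library.

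OSR1 (ENSG00000143867, chromosome 2, 19351485 to 19358653, minus strand), the early factor of the intermediate mesoderm, was barely above the level tested. It had 26, 17 and 13 counts in the knockout libraries and 11, 15 and 7 counts in the wild-type libraries. In CPM these were 1.48, 0.816 and 0.743 in the knockout and 0.621, 0.787 and 0.345 in the wild type, so knockout replicate 3 lay below wild-type replicate 2. The log2 fold change of 0.79 did not pass (95% interval −0.079 to 1.66, edgeR adjusted p = 0.183), and it was 0.42 without knockout replicate 1. The interval runs up to 3.15-fold, the widest upper bound among the genes tested.

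Of the 8 genes tested, then, 1 was called higher, 1 lower and 6 neither, beside 23.4% of all genes called in either direction. The CPM of the groups did not overlap for 2 of the 8, against 38.6% of all genes. The median log2 fold change was 0.086 over these 8 genes and 0.0063 over all genes tested. The 9 genes together summed to 90.1, 92.7 and 90.3 TPM in the knockout libraries and 107.2, 94.4 and 97.8 TPM in the wild-type libraries. On log2(TPM + 1) the median log2 fold change over all genes tested was −0.059. Whether the lower sums of the 9 genes go beyond that shift was not tested. SIX2 made up 49.2% to 53.6% of the summed TPM of the 9 genes in the knockout and 49.1% to 52.3% in the wild type.

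**Figure D3:**
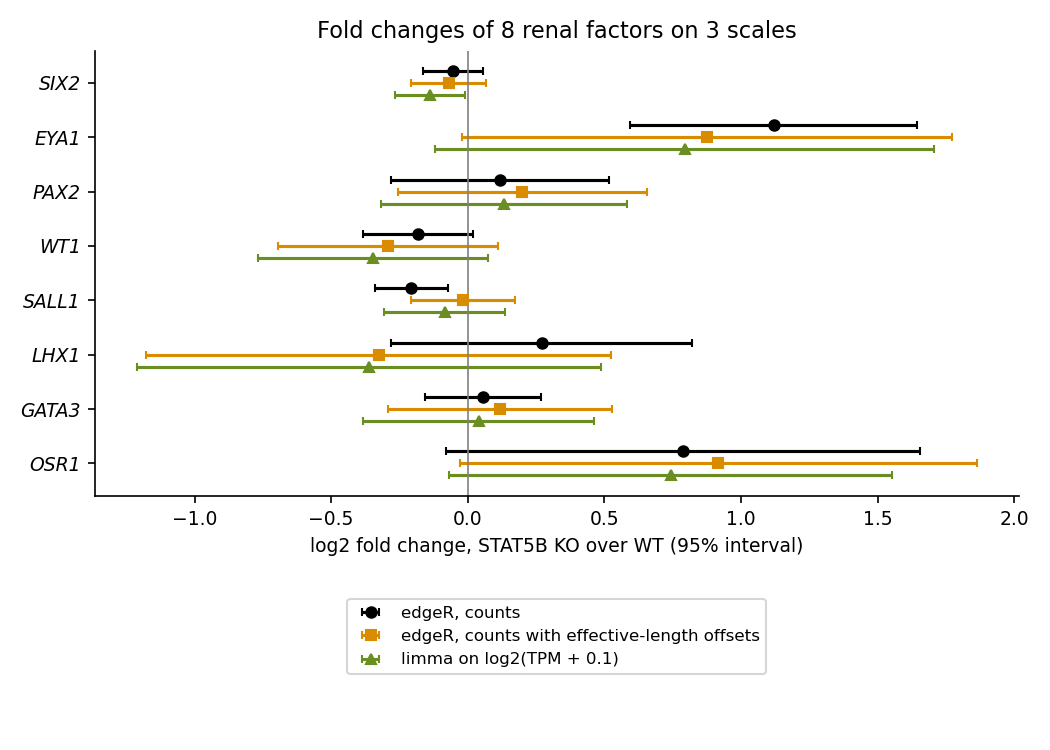
Log2 fold change, knockout over wild type, of the 8 tested genes (x axis, with 95% intervals) from edgeR on counts (black), edgeR with effective-length offsets (orange) and limma on log2(TPM + 0.1) (green). Only EYA1 and SALL1 have count-based intervals clear of 0, and both intervals reach 0 on the length-based scales. The SIX2 interval is clear of 0 only on log2(TPM + 0.1).

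The order of the levels per length was nearly the same in both groups. In the knockout SIX2 (46.2 ± 1.996 TPM) was followed by WT1 (14.6 ± 2.23), SALL1 (13.2 ± 0.47), GATA3 (10.1 ± 1.69), LHX1 (2.04 ± 0.66), EYA1 (1.99 ± 0.53), PAX2 (1.89 ± 0.14) and OSR1 (0.974 ± 0.39), as mean TPM with SD over 3 libraries. The wild type had SIX2 at 50.9 ± 1.84 TPM, WT1, SALL1, GATA3 and LHX1 in the same order, then PAX2 (1.73 ± 0.24) above EYA1 (1.21 ± 0.77) and OSR1 (0.535 ± 0.18). In both groups the ranges of WT1 and SALL1 overlapped, as did those of LHX1, EYA1 and PAX2 between neighbours, so these places in the order do not differ beyond the spread. SIX2, GATA3, OSR1 and PAX8 stood apart from their neighbours in each group.

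For 6 of the 7 families the most abundant relative was another gene. In its family of 6 genes SIX2 led and took 38.4% to 43.5% of the family's summed TPM in the knockout and 41.1% to 43.8% in the wild type. SIX4 and SIX5 stood at 13.4 and 11.7 TPM in the knockout and 14.3 and 12.6 TPM in the wild type.

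EYA1 was the least abundant EYA gene. EYA3, a widely expressed member, had 27.5 ± 3.21 TPM in the knockout and 30.6 ± 1.49 TPM in the wild type. EYA4, a gene of the inner ear and heart, had 19.4 TPM in the knockout and 20.6 TPM in the wild type, and EYA2 had 8.06 and 9.22 TPM. EYA1 made up 2.74% to 4.83% of the family's TPM in the knockout and 1.22% to 3.39% in the wild type. EYA3 fell by 0.19 in log2 (edgeR adjusted p = 0.00321), and with offsets for effective length it was −0.082 and not called (adjusted p = 0.598).

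PAX2 was 3.56% to 3.97% of the summed TPM of 9 PAX genes in the knockout and 2.80% to 3.65% in the wild type. PAX6, a regulator of eye and brain, led with 28.99 ± 0.26 TPM in the knockout and 28.8 ± 0.17 TPM in the wild type. PAX3, a gene of neural crest and muscle, followed with 11.8 TPM in the knockout and 13.6 TPM in the wild type, and PAX9, a gene of teeth and thymus, with 5.53 and 6.03 TPM. PAX5, the B-cell factor of the same subgroup as PAX2 and PAX8, had 1.15 ± 0.44 TPM in the knockout and 1.71 ± 0.70 TPM in the wild type, close to PAX2. None of the PAX genes tested passed edgeR.

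SALL1 followed SALL2, which stood at 30.7 ± 1.29 TPM in the knockout and 29.6 ± 0.45 TPM in the wild type. SALL2 had a log2 fold change of 0.13 (edgeR adjusted p = 0.0399), and that call ended in 9 of 15 alternatives, among them DESeq2 (adjusted p = 0.112), effective-length offsets (0.172) and the removal of any library but knockout replicate 1 (0.0807 to 0.152). The log2 fold change of SALL2 was 0.12 in both DESeq2 and the fit with offsets. OSR2, the relative of OSR1, had 8.03 ± 0.51 TPM in the knockout and 9.31 ± 0.57 TPM in the wild type, where OSR1 had 0.974 and 0.535 TPM.

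GATA3 was the fourth of 6 GATA genes. GATA2, a blood and endothelial factor, had 23.3 ± 1.96 TPM in the knockout and 26.9 ± 2.72 TPM in the wild type, and GATA4 and GATA6, genes of heart and endoderm, had 18.4 and 14.5 TPM in the knockout and 17.5 and 17.3 TPM in the wild type. LHX1 was the fifth of 8 LHX genes, which were all low, with LHX8 highest at 4.60 TPM in each group. WT1 was set beside EGR1, which shares its type of zinc fingers, and EGR1 had 4.47 TPM in the knockout and 4.56 TPM in the wild type. Among 26 tested relatives of the 9 genes, 1 rose (SALL2), 1 fell (EYA3) and 24 did not pass, beside 23.4% of all genes called, with a median log2 fold change of −0.035.

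**Figure D4:**
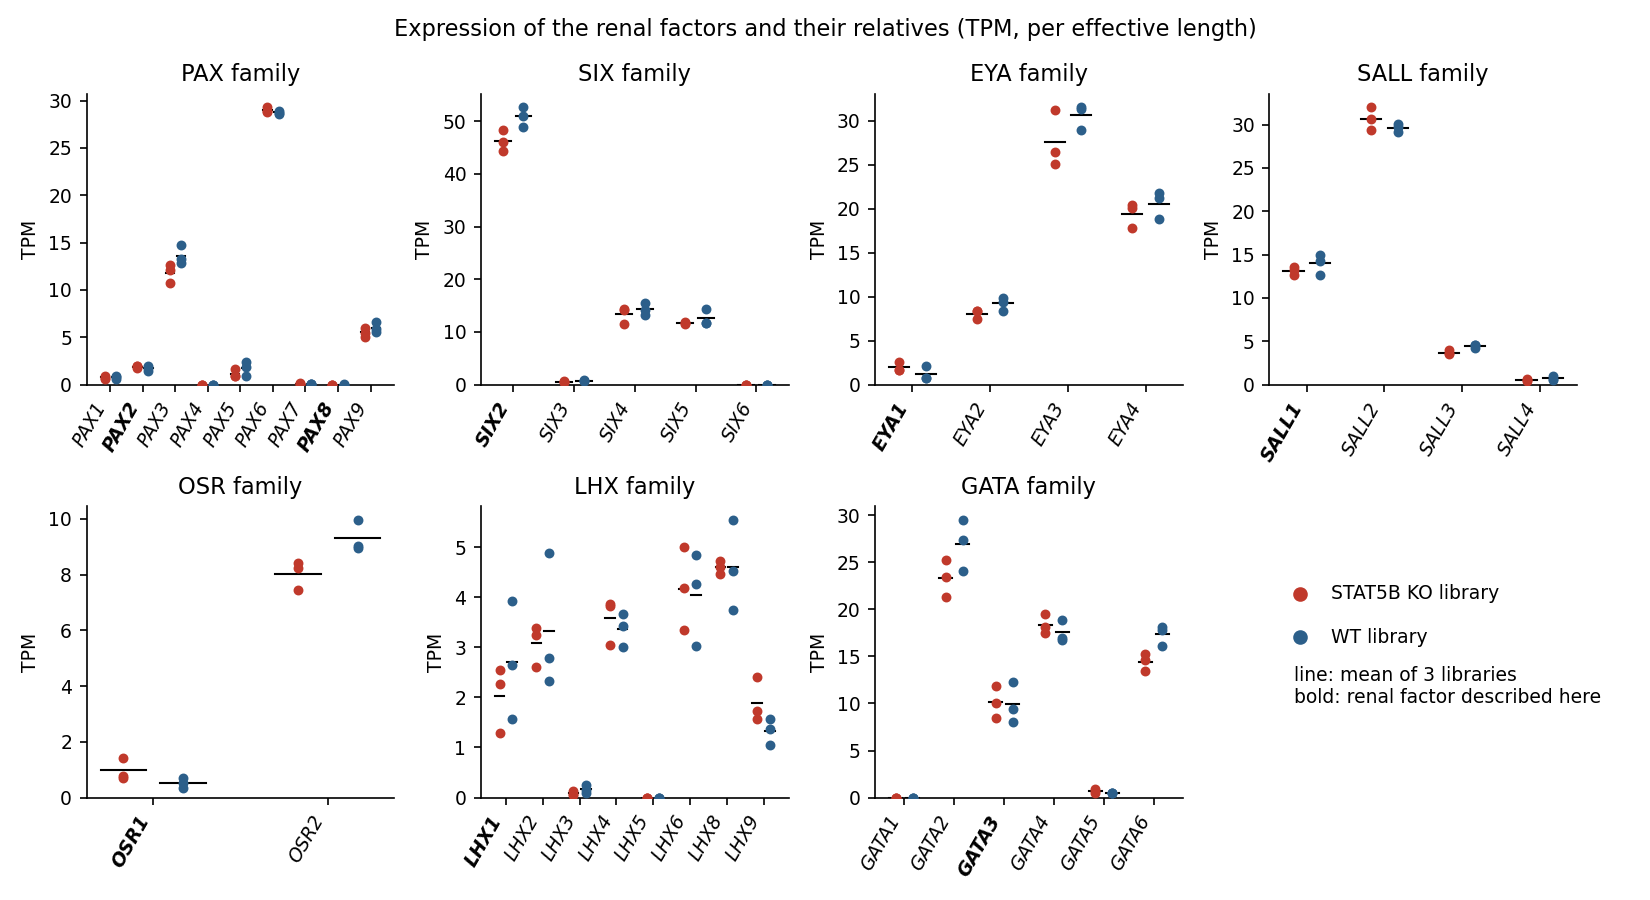
TPM (y axis from 0, its own scale per panel) of genes of the 7 families in each knockout (red) and wild-type (blue) library, with a line at the mean of 3 libraries and the genes described here in bold. SIX2 leads its family at 46.2 TPM in the knockout and 50.9 TPM in the wild type, while EYA1, PAX2, PAX8 and OSR1 lie far below the leading gene of theirs.

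Other regulators of nephron formation moved in both directions. Of 31 listed, 24 were tested: 3 rose (MEOX1 and HOXC11 among them), 7 fell (TFCP2L1, CITED1, HOXA10, HOXD10, HOXD11 and TFAP2A among them) and 14 did not pass, beside 23.4% of all genes called, with a median log2 fold change of 0.0079. CITED1, a co-activator that marks the most immature nephron progenitors together with SIX2, fell by 0.33 in log2 to 15.2 ± 0.31 CPM in the knockout, against 19.2 ± 0.89 CPM in the wild type (edgeR adjusted p = 0.00527). TFCP2L1, a factor of the collecting duct, fell by 0.46 in log2 (edgeR adjusted p = 8.97e-04). CITED1 passed in all 15 alternatives, whereas TFCP2L1 was at −0.34 with offsets for effective length and not called (edgeR adjusted p = 0.309). The 7 falls were 3 with those offsets or on either TPM scale, and 4 without wild-type replicate 2.

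Signals that induce the kidney were mostly transcribed. Of 30 listed, 25 were tested: 1 rose (SPRY1), 5 fell (NOTCH2, FGFR2, SLIT2, FGFR1 and ETV5) and 19 did not pass, beside 23.4% of all genes called, with a median log2 fold change of −0.064. NOTCH2, the receptor that patterns the proximal nephron, fell by 0.21 on the log2 scale to 265.7 ± 1.36 CPM in the knockout, against 307.6 ± 8.86 CPM in the wild type (edgeR adjusted p = 3.13e-04), in all 15 alternatives too. FGFR2, a receptor of the ureteric bud, fell by 0.30 in log2 (edgeR adjusted p = 0.00397). SLIT2, a repellent that limits the ureteric bud, fell by 0.15 in log2 (edgeR adjusted p = 0.00599). SPRY1, an inhibitor of RET and FGF signalling, rose by 0.39 in log2 (edgeR adjusted p = 0.00634). With offsets for effective length the log2 fold changes of FGFR2, SLIT2 and SPRY1 were −0.29, −0.13 and 0.35, close to those on counts, and were not called (edgeR adjusted p = 0.0965, 0.167 and 0.0921). RET, the receptor of the ureteric bud, had 5.66 ± 0.24 CPM in the knockout and 6.79 ± 0.78 CPM in the wild type, and its ligand GDNF had 2.50 ± 0.34 and 2.07 ± 0.34 CPM, neither past the threshold (edgeR adjusted p = 0.168 and 0.447). The 5 falls were 1 with length offsets or on either TPM scale, and 3 without knockout replicate 2 or without wild-type replicate 2. They were 6 with RLE factors, voom, a minimum of 1 CPM in 3 libraries or the replicate block. Without a low-count filter, or without knockout replicate 3, they were 7. The rises were 0 on the length-based scales and 2 without knockout replicate 1.

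Podocyte genes, among them targets of WT1, did not move one way. Of 9 listed, 5 were tested, with 1 lower, 1 higher (PTPRO) and 3 not past the threshold, beside 23.4% of all genes called. The 9 genes summed to 33.6 to 37.1 TPM in the knockout and 39.2 to 42.5 TPM in the wild type. Over all genes tested the median log2 fold change on log2(TPM + 1) was −0.059. PODXL, the podocalyxin gene, had 85.0 ± 1.502 CPM in the knockout and 87.6 ± 1.35 CPM in the wild type (edgeR adjusted p = 0.469). PTPRO, a receptor phosphatase of podocytes, rose by 0.65 in log2 to 4.84 ± 0.21 CPM in the knockout, against 3.09 ± 0.17 CPM in the wild type (edgeR adjusted p = 0.00896). With offsets for effective length its log2 fold change was 0.41 and not called (edgeR adjusted p = 0.350). Of the 6 tested stroma markers ACTA2, smooth muscle actin, rose by 1.06 in log2 (edgeR adjusted p = 0.00163), and 5 did not pass. The share of 23.4% over all genes stands beside this count too. The 9 stroma markers summed to 83.4 to 91.8 TPM in the knockout and 81.6 to 86.7 TPM in the wild type. FOXD1, which defines the renal stroma, had 33.5 ± 4.76 TPM in the knockout and 31.6 ± 2.81 TPM in the wild type, and it did not pass the test (edgeR adjusted p = 0.234).

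**Figure D5:**
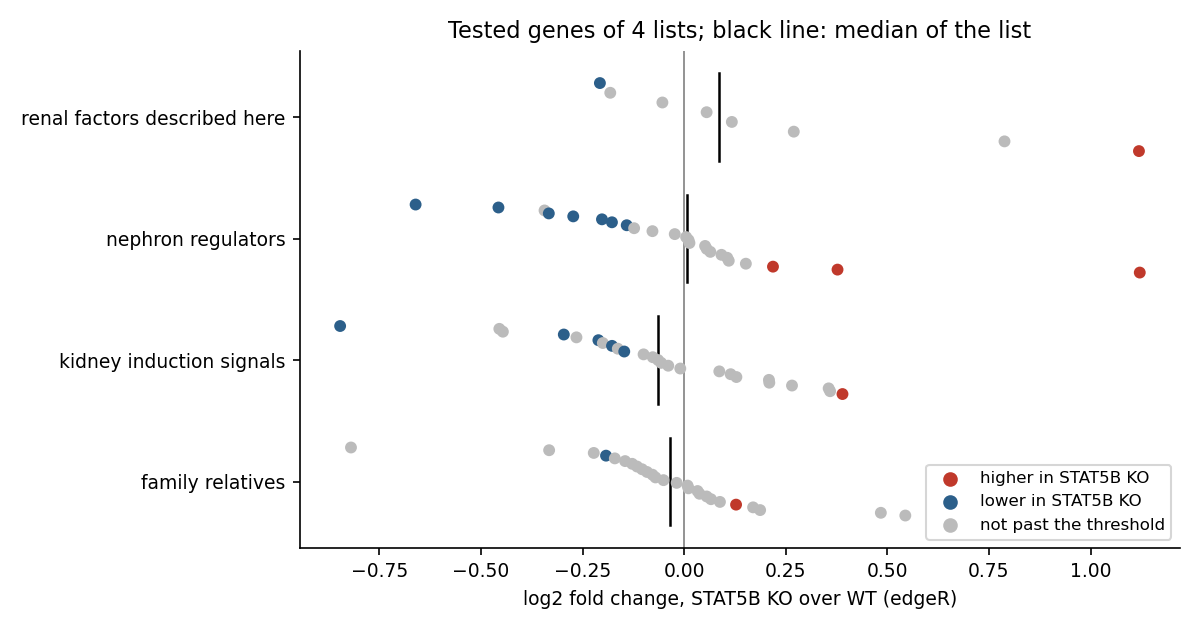
Log2 fold change, knockout over wild type (x axis, edgeR), of each tested gene among the factors described here and 3 lists, red where higher in the knockout, blue where lower and grey where not past the threshold, with a black line at the median of each list. The medians lie between −0.064 and 0.086, and most points are grey.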

How the data were processed

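RNA sequencing libraries from HEK293 cells were grouped by the genotype label. Per the submitters' processing notes the tools were FastQC, fastp, DRAGEN and Picard, and the build was hg38. The sources used here do not give the annotation release, the counting rule or strand use. Per the file headers, each deposited file gives, per gene, a length, an effective length, TPM and an estimated count. The deposited estimated counts were rounded to whole numbers, since 7.12% to 7.64% of values per library were not whole. Each library's deposited TPM added up to 1000000. Symbols were found for 60295 of 60609 identifiers after removal of the version, and positions are from GENCODE release 29 (58457 identifiers).

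Counts were tested with edgeR 4.0.16 in R 4.3.3: filterByExpr (minimum count 10, minimum total 15), TMM scaling, quasi-likelihood F test of group and Benjamini-Hochberg adjustment over 15958 genes at 0.05. Another 44651 genes were not tested. Standard errors are the log2 fold change divided by the square root of F, and 95% intervals use the degrees of freedom of the test. CPM are on TMM-scaled library sizes. The alternatives were DESeq2 1.42.0, RLE factors in edgeR, voom in limma 3.58.1, other filters, effective-length offsets, limma on log2(TPM + 1) and log2(TPM + 0.1), a replicate block, and leaving out each library. Fits by edgeR, voom and DESeq2 were also run on simulated counts, with results not given here. Those counts had the same spread for every gene, a biological coefficient of variation of 4.43%. They therefore cannot show how the fits do on genes with a wider spread. Chi-square per degree of freedom between replicate libraries was 2.45 to 7.50, so no library was a copy of another.

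The 9 genes and the 12 gene lists, which include the marker lists, were chosen with earlier results of these data known. Named were the 9 genes, genes overlapping them, family relatives with a mean of at least 1 TPM in a group, up to 4 called genes per other list by smallest p, and STAT5B. Further genes named from the lists, such as RET, GDNF, PODXL and FOXD1, were chosen after their values were seen. Some genes that the rule names are not reported here. Promoter sequences are RefSeq's, found for 5 of the 9 genes.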

Additional observations from a re-analysis of the deposited data

How the results depend on the processing

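The EYA1 call held in 12 of 15 alternatives and the SALL1 call in 7. Calls above the threshold among the 9 genes were 0 for higher on log2(TPM + 1), on log2(TPM + 0.1) and with offsets for effective length. Calls for lower were 0 in these settings and in DESeq2. Leaving out 1 library at a time gave 1 higher call each time and 0 to 1 lower calls. Over all genes, 891 were higher and 844 lower with offsets, 488 and 1135 on log2(TPM + 1), and 483 and 1139 on log2(TPM + 0.1). Leave-one-out counts were 1339 to 1789 higher and 1279 to 1786 lower. The median log2 fold change of all genes was 0.00072 with offsets, −0.059 on log2(TPM + 1) and −0.067 on log2(TPM + 0.1), against 0.0063 on counts. These scales reversed LHX1, to −0.33 with offsets, −0.27 on log2(TPM + 1) and −0.36 on log2(TPM + 0.1), and its length per library was 1361 to 2784 bases. GATA3 was −0.0065 without knockout replicate 2, and leaving out 1 library at a time gave −0.0065 to 0.13. The cause of these moves was not tested. The labels state no pairing by replicate number. Same-numbered libraries correlated at −0.055, 0.16 and 0.022 in their deviations, and other-numbered libraries at −0.16 to 0.137. With 3 libraries per group these values cannot decide whether the libraries were paired. With the replicate number as a block 1887 genes were higher and 1773 lower, the calls of EYA1 and SALL1 held, and that of STAT5B ended (edgeR adjusted p = 0.0554). OSR1 has no DESeq2 value, as its adjusted p was not given, and none at a minimum of 1 CPM in 3 libraries. Counts of at most 89 per library in EYA1, PAX2, LHX1 and OSR1 limit what could be detected there.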
